A study of Mus musculus with 12 samples.

Results

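Primary (azurophil) granules are the first storage granules that a developing neutrophil makes, and their proteins are transcribed mainly at the promyelocyte stage. Described here are 7 genes for proteins of these granules: Mpo, Elane, Prtn3, Ctsg, Prss57, Ctsc and Srgn. They were taken by symbol from the deposited gene tables, and all 7 were among the 13755 genes tested, of 24411 listed. Expression was measured by poly(A) RNA sequencing of bone marrow cells from the femora and tibiae of transplanted mice, gated as lineage-negative and cKit-positive to hold stem cells and progenitors. Every donor was a C57BL/6 CD45.2+ mouse carrying Mx1-Cre, a Cre transgene whose interferon-responsive promoter is switched on by pIpC and is active in many cell types. Donors had Mx1-Cre alone (control), Mx1-Cre with the inv(3) allele, a model of the leukaemia rearrangement that brings EVI1 under a GATA2 enhancer, Mx1-Cre with heterozygous Sf3b1 K700E, a splicing-factor mutation, or Mx1-Cre with both alleles (the double group). Donor marrow was mixed with wild-type CD45.1+ support marrow, given to irradiated CD45.1+ recipients, induced 4 weeks later with 3 doses of pIpC at 20 mg/kg, and sampled 6 months after that. The labels give neither the age and sex of the mice nor whether CD45.2+ donor cells were separated from support and host cells. Each group had 3 libraries, and since the labels do not say that these are separate mice, p-values may cover technical spread only.

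Myeloperoxidase (Mpo) is the heme enzyme that makes hypochlorous acid from hydrogen peroxide and chloride. Neutrophil elastase (Elane), proteinase 3 (Prtn3), cathepsin G (Ctsg) and neutrophil serine protease 4 (Prss57) are related serine proteases that are made as inactive precursors. Cathepsin C (Ctsc), a lysosomal cysteine protease also called dipeptidyl peptidase I, removes a short N-terminal stretch from these precursors and so activates them. Serglycin (Srgn) is the proteoglycan core protein whose chondroitin sulfate chains hold the basic granule enzymes in store, and it is made by many blood cell types.

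On GRCm38, 4 of the genes lie on chromosome 10. Prtn3 (79874476 to 79883174, plus strand) and Elane (79886247 to 79888215, plus strand) are neighbours 3072 bases apart. Prss57 (79781474 to 79790961, minus strand) lies in the same region and Srgn (62493833 to 62527451, minus strand) is distant from it. Mpo spans 87793581 to 87804413 on chromosome 11 (plus strand), Ctsg 56099881 to 56102574 on chromosome 14 (minus strand), and Ctsc 88278085 to 88310888 on chromosome 7 (plus strand). Genes on the opposite strand overlap Mpo (Gm11505), Prtn3 (Plppr3), Prss57 (Fstl3) and Ctsc (Gm26522), and in unstranded libraries their reads cannot be told apart within the overlap. Of these, Fstl3 was listed at only 1.71 ± 0.244 TPM (SD, n = 3) in control, where TPM is a level scaled by gene length and library size.

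Promoter stretches are shown because most of the 7 genes moved together across the groups described below, and because PU.1, C/EBP, MYB and RUNX factors are known regulators of this gene set. Promoters from RefSeq (GRCm38.p6, 250 bases before to 50 after the start) were matched for 6 of the 7 genes, all but Prss57, and searched on both strands. Below are the stretches, 70 bases each, that hold most of the matches, read 5′ to 3′ on the gene's own strand. Capitals mark motifs on either strand. For PU.1 the core letters GAGGAA were sought. The MYB motif was taken as CAACNG with any base at N. For RUNX factors the letters were TGTGGT, and the TATA box was spelt TATAAA. A motif on the other strand appears as its reverse complement.
Mpo chr11:87793534-87793603 (+): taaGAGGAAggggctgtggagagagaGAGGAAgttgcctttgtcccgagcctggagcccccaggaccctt
Elane chr10:79886202-79886271 (+): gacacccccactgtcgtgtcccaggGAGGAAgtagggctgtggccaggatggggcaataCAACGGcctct
Prtn3 chr10:79879557-79879626 (+): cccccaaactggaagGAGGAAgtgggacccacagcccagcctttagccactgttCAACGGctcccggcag
Ctsg chr14:56102605-56102674 (-): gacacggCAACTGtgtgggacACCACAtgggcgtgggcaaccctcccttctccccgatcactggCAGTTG
Ctsc chr7:88277885-88277954 (+): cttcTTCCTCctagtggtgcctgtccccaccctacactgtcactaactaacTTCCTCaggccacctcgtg
Srgn chr10:62527536-62527605 (-): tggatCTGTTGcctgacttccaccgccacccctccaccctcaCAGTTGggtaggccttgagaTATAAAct

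GAGGAA was found in 5 of the 6 promoters (Mpo, Elane, Prtn3, Ctsg and Ctsc), against 28.3% of 32851 RefSeq promoters of the same length. In Elane it starts 85 bases before the RefSeq transcription start and in Prtn3 95 bases before it, and each is followed by CAACGG, 51 and 56 bases before the start. The RefSeq starts differ from the GENCODE gene spans given above for some genes. The whole Prtn3 stretch lies inside its span, which begins at 79874476. The Elane and Mpo stretches run into theirs, which begin at 79886247 and 87793581, and the Elane CAACGG lies inside the span. CAACNG was found in 4 of 6 (Elane, Prtn3, Ctsg and Srgn), against 35% of all promoters, TATAAA in 2 (Ctsg and Srgn), against 13.6%, and TGTGGT in 1 (Ctsg), against 16.8%. The TATAAA match lies 237 bases before the start in Ctsg, on the other strand, and 98 bases before it in Srgn. RefSeq gives Srgn another start further into the gene; its window was left out of these counts and holds CAACNG and TGTGGT. TTGCNNAA, the C/EBP motif, was in 0 of 6 windows and in 10.8% of all. No match printed overlaps another, a match is only a description of the sequence, and no binding was measured.

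Library totals ran from 73074797 to 86555638 expected counts, so the counting error of the members was small beside the spread between libraries. Kit, the receptor of the gate, stood at 429 to 457 CPM (counts scaled to library size) as group means, while the T-cell gene Cd3e was at or near 0 in all groups. The inv(3) libraries stood apart in sex-linked RNA: Xist was at 1794 to 2095 CPM there and at 24.0 to 39.9 in control, and the Y-linked Ddx3y was at 0.0135 against 105 CPM as means. In comparisons of inv(3) with control or with the double group, genotype and donor sex therefore cannot be told apart. The double and Sf3b1 K700E libraries both held Y-linked RNA, with Ddx3y at 125 and 109 CPM, as did control. Xist was at 77.1 to 209.7 CPM in Sf3b1 K700E, above control without overlap, and at 23.2 to 40.5 CPM in the double group.

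The 7 genes together took 3.59 ± 0.159% of all expected counts in control (SD, n = 3 here and below). The share was 4.08 ± 0.0508% in inv(3), 3.26 ± 0.227% in the double group and 2.58 ± 0.242% in Sf3b1 K700E. Ranges were 3.42 to 3.74%, 4.02 to 4.12%, 3.08 to 3.51% and 2.31 to 2.79% in the same order, so inv(3) lay above and Sf3b1 K700E below the other groups, and the double group overlapped control alone. Mpo made up 64.8 ± 0.134% of the members' counts in control and 66.8 ± 0.446% in the double group.

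**Figure D1:**
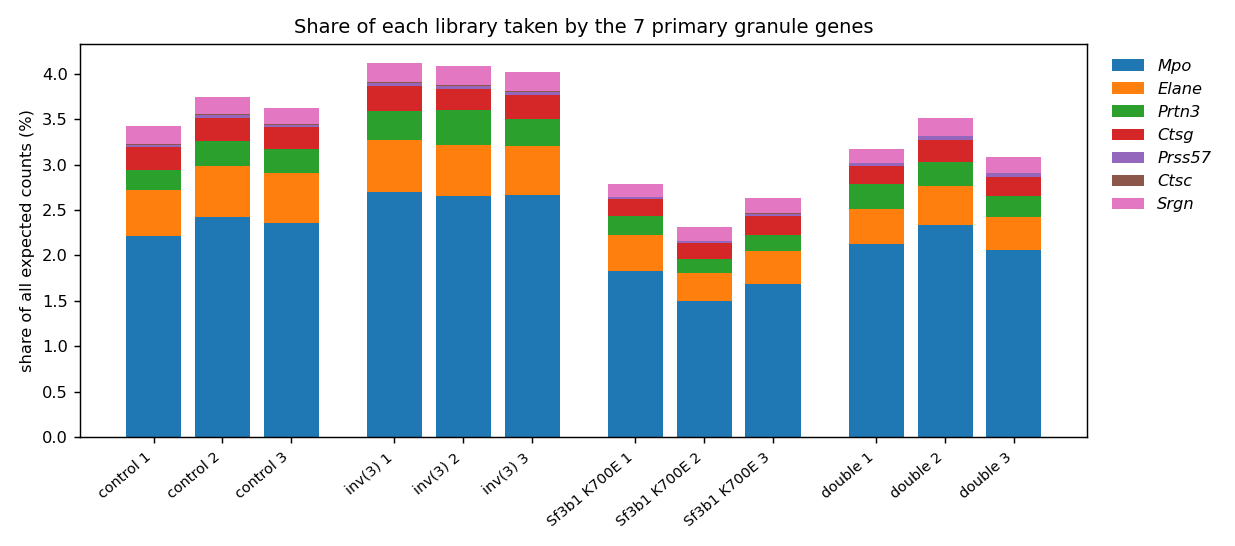
Stacked bars give the percent of each library's expected counts taken by each of the 7 genes, for the 3 libraries of each group. Mpo fills most of every bar, and the summed share runs from 2.31% in Sf3b1 K700E library 2 to 4.12% in inv(3) library 1.

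By TPM the order of the genes in control was Mpo, Elane, Prtn3, Ctsg, Srgn, Prss57 and Ctsc. Mpo was the most abundant of all listed genes in the 3 control and the 3 inv(3) libraries and in double libraries 1 and 2, and ranked 2 in the other 4. Neighbours in that order whose libraries overlapped in control were Prtn3 and Ctsg, with means of 5417 ± 609 and 5103 ± 197 TPM. In inv(3), Prtn3 stood above Ctsg without overlap and Ctsg overlapped Srgn, and in the double group Prtn3 overlapped Ctsg and Ctsg overlapped Srgn. In Sf3b1 K700E, Prtn3 overlapped both Ctsg and Srgn. Mpo and Elane, at the top, and Prss57 and Ctsc, at the bottom, kept their places in all 12 libraries.

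Mpo, the peroxidase, stood at 16103, 17423 and 16876 TPM in control libraries 1, 2 and 3 and at 19359, 18315 and 18634 TPM in inv(3). In Sf3b1 K700E the 3 values were 13096, 10880.1 and 12276 TPM, and in the double group 15360.3, 16778 and 14966 TPM. All inv(3) libraries were above and all Sf3b1 K700E libraries below every other library, and the double group overlapped control.

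Elane, the elastase, was at 11456, 12824 and 12512 TPM in control and 12689.5, 12519 and 11745 TPM in inv(3), groups that overlapped. It was at 8889.6, 7071 and 8343 TPM in Sf3b1 K700E and 8585, 9894 and 8252 TPM in the double group. Both groups with Sf3b1 K700E lay below both groups without it, and overlapped each other. Its neighbour Prtn3, the autoantigen of a form of vasculitis, was at 4713, 5778 and 5759 TPM in control and 6937, 7908 and 6156 TPM in inv(3). For Prtn3 the values were 4542, 3314 and 3868 TPM in Sf3b1 K700E and 5950.2, 5651 and 4850.1 TPM in the double group. Here, unlike Elane, the double libraries overlapped control and lay above all Sf3b1 K700E libraries.

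The TPM ratio of Elane to Prtn3 was 2.27 ± 0.137 in control, 1.77 ± 0.169 in inv(3), 1.63 ± 0.165 in the double group and 2.08 ± 0.109 in Sf3b1 K700E. The 6 libraries with inv(3) ranged from 1.44 to 1.91 and the 6 without it from 1.96 to 2.43, with no overlap. The ratio of Mpo to Elane was 1.37 ± 0.0304 in control and 1.77 ± 0.0622 in the double group, whose libraries were above those of every other group. These ratios were not tested.

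Ctsg, the chymotrypsin-like protease of the set, was at 5238, 5194 and 4877 TPM in control and 5415, 4487 and 5242 TPM in inv(3). In Sf3b1 K700E it was at 3759.8, 3719.9 and 4304 TPM and in the double group at 4059.7, 4986 and 4483 TPM. Only the Sf3b1 K700E group was clear of control; the inv(3) and double groups each overlapped it. Prss57, a protease that cleaves after arginine, was far less abundant, at 186, 201 and 186 TPM in control and 288, 268 and 269 TPM in inv(3). It was at 142, 130.2 and 151 TPM in Sf3b1 K700E and 217, 261 and 233 TPM in the double group. The 4 groups of Prss57 were in the order Sf3b1 K700E, control, double and inv(3), and no group overlapped another.

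Ctsc, the activator, ran the other way. Its values were 53.9, 50.3 and 51.4 TPM in control and 41.6, 32.8 and 38.3 TPM in inv(3), then 61.6, 69.5 and 60.4 TPM in Sf3b1 K700E and 52.1, 43.1 and 43.9 TPM in the double group. All Sf3b1 K700E libraries were above and all inv(3) libraries below the rest, while double overlapped control. The 4 serine proteases summed to 444 ± 39.1 TPM per TPM of Ctsc in control, 663 ± 91.6 in inv(3), 416 ± 61.5 in the double group and 254 ± 42.6 in Sf3b1 K700E.

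Srgn, the storage proteoglycan, was at 4489, 4177 and 3855 TPM in control and 4692, 4586 and 4627 TPM in inv(3). It was at 3097, 3364 and 3718 TPM in Sf3b1 K700E and 3272, 4343 and 3926 TPM in the double group. The inv(3) libraries were the tightest of the 4 groups and above all others, and the double group spread across both control and Sf3b1 K700E.

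**Figure D2:**
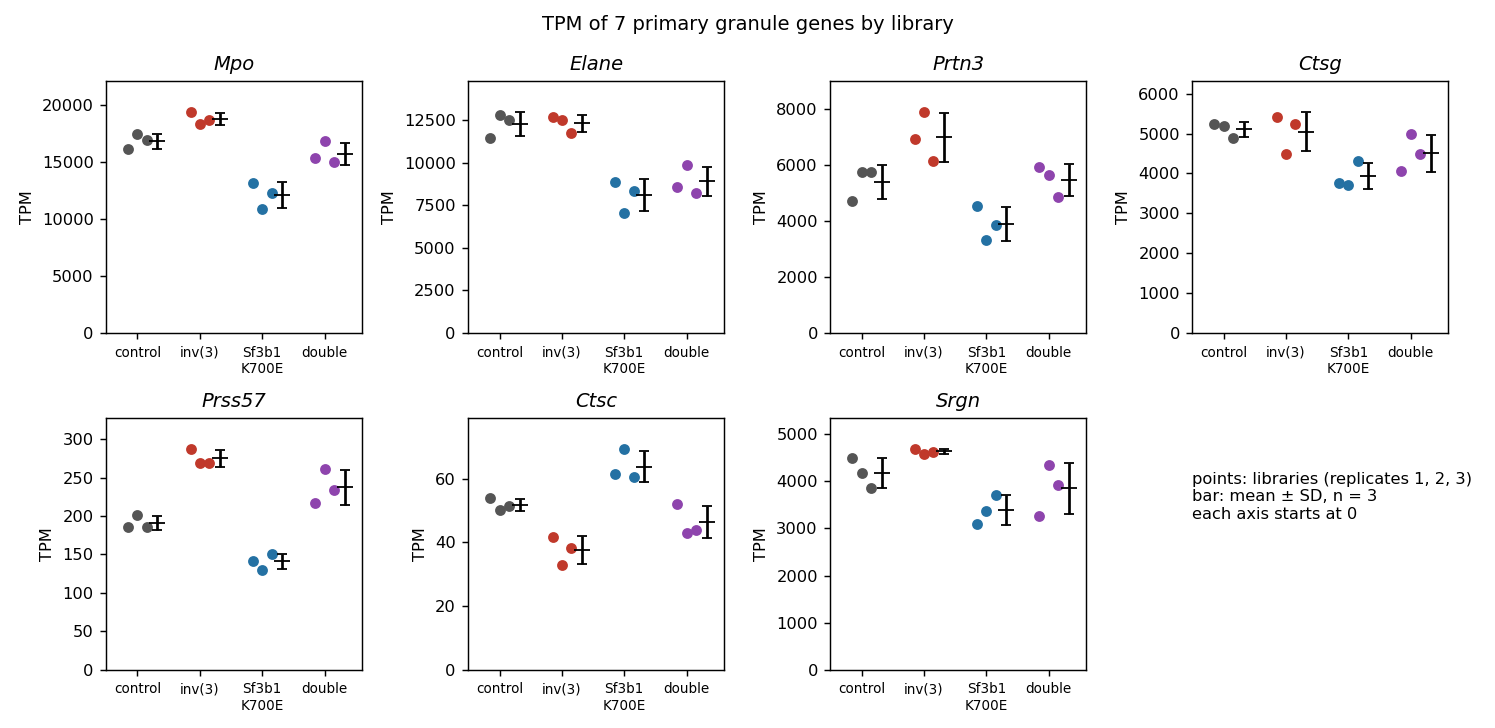
Each panel shows the TPM of 1 gene (vertical axis from 0) in the 12 libraries by group, with points in the order of replicates 1, 2 and 3 and a bar for the mean ± SD (n = 3). Sf3b1 K700E is the group with the lowest mean in 6 panels and the group with the highest in the panel of Ctsc.

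The comparison of inv(3) with control set the rearrangement without Sf3b1 K700E against Mx1-Cre alone, and donor sex differed between the same groups. Mpo, Prtn3 and Prss57 rose, Ctsc fell, and Elane, Ctsg and Srgn did not pass the test (edgeR quasi-likelihood on all genes, Benjamini-Hochberg limit 0.05). Thus 3 of 7 rose and 1 of 7 fell, in a comparison in which 18.4% of all tested genes rose and 20.3% fell (38.7% in either direction). The members' median log2 fold change was 0.26, against 0.0034 for all tested genes. Prss57 had the largest of the rises, at 0.64 ± 0.077, adjusted p = 6.28e-05 (log2 fold change ± SE). Prtn3 rose by 0.48 ± 0.14, adjusted p = 0.0180, and Mpo by 0.27 ± 0.072, adjusted p = 0.0107. Ctsc changed by -0.35 ± 0.081, adjusted p = 0.00483. For Srgn, whose groups did not overlap, the estimate was 0.26 ± 0.099, adjusted p = 0.0591. Elane (95% interval of the log2 fold change -0.096 to 0.32) and Ctsg (-0.10 to 0.28) had intervals that span 0 and leave room for a modest difference in either direction. Groups did not overlap for 4 genes that were higher and 1 that was lower, against 24.9% and 26.9% of all genes. Prtn3 lost its call without control library 1 (adjusted p = 0.0745) or inv(3) library 2, and the other called members kept theirs when each library was left out.

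Cell-type markers moved between the same groups. In inv(3), 14 of 20 tested genes of later neutrophil granules and stages rose and 1 fell, with a summed level of 1804 to 2614 CPM in control and 6030.0 to 7198 CPM in inv(3). Of 18 macrophage markers, 12 fell and 2 rose (Cd68 by 1.57 and Adgre1 by 0.57 on the log2 scale), with a summed level of 594 to 688 CPM in control and 237 to 325 CPM in inv(3). Of 12 mast cell and basophil markers, 9 fell and 1, Cd200r3, rose (log2 fold change 4.13). Eosinophil markers fell in 7 of 10 and rose in 1 (Siglecf), with a summed level of 629 to 768 CPM in control and 386 to 515 CPM in inv(3). Megakaryocyte markers fell in 8 of 10 and rose in 0, and erythroid markers fell in 8 of 16 and rose in 3, the globin genes Hba-a2, Hbb-b1 and Hbb-bt. Monocyte markers went both ways: Ccr2 fell (log2 fold change -1.56), while the mean of Itgam was 183 CPM in control and 357 CPM in inv(3). Their summed levels overlapped, at 2538 to 2885 CPM in control and 2079 to 2763 CPM in inv(3). Markers of stem cells and progenitors summed to 2464 to 2527 CPM in control and 2099 to 2151 CPM in inv(3). In bulk RNA, a change in the number of cells of a type and a change in RNA per cell cannot be told apart. The part of these markers in the members' differences was not tested.

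Comparing Sf3b1 K700E with control addressed the splicing-factor mutation alone. Mpo, Elane, Prtn3, Ctsg, Prss57 and Srgn fell, and Ctsc did not pass the test. That is 6 of 7 lower and 0 of 7 higher, where 4.9% of all tested genes fell and 3.94% rose (8.84% in either direction). The members' median log2 fold change was -0.50, against -0.0053 for all tested genes. By DESeq2, which called 1881 genes in all, 1 member (Ctsc) was also higher, and by limma-voom (1274 in all) 0. Ctsc was also higher by edgeR at an unadjusted p under 0.05, a limit for which no count over all genes is given here. Elane fell most, with -0.66 ± 0.096, adjusted p = 0.00582 (log2 fold change ± SE), a level 0.634 times that of control. Mpo gave -0.54 ± 0.072, adjusted p = 0.00440, Prtn3 -0.53 ± 0.14, adjusted p = 0.0385 and Prss57 -0.50 ± 0.077, adjusted p = 0.00602. Ctsg gave -0.44 ± 0.088, adjusted p = 0.0148, and Srgn -0.36 ± 0.099, adjusted p = 0.0460. Ctsc was estimated at 0.24 ± 0.081, adjusted p = 0.0906, although its 3 Sf3b1 K700E libraries were above all controls. No member overlapped between groups: 6 were lower and 1 higher in every library, against 15.8% and 17.7% of all genes.

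These calls rest on few libraries. Without control library 2 or without Sf3b1 K700E library 2, 3 members (Mpo, Elane and Prss57) still passed, and the number of genes called in all dropped from 1216 to 214 and 168. Of 21 alternatives, Mpo, Elane and Prss57 kept their calls in all, Ctsg in 19, Prtn3 in 15 and Srgn in 9. Macrophage markers were higher in Sf3b1 K700E for 14 of 18 tested genes and lower for 0, with a summed level of 745 to 999 CPM against 594 to 688 CPM in control. Erythroid markers rose in 5 of 16 and B-cell markers in 5 of 9, with summed B-cell levels of 27.3 to 29.1 CPM against 24.6 to 26.4 CPM, and 0 of either list fell. Xist was also higher in Sf3b1 K700E (2.28 ± 0.35, adjusted p = 0.00701). Their part in the fall of the granule genes was not tested.

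In the double group against control, 1 member rose and 1 fell, where 20.8% of all genes rose and 20.4% fell (41.1% in either direction). Prss57 rose (0.34 ± 0.077, adjusted p = 0.00391) and Elane fell (-0.43 ± 0.096, adjusted p = 0.00398), and these were also the 2 members whose groups did not overlap, against 27.3% higher and 27.5% lower of all genes. The estimates for the other 5 were -0.068 for Mpo, 0.047 for Prtn3, -0.15 for Ctsg, -0.13 for Ctsc and -0.087 for Srgn. Their 95% intervals all span 0, from -0.23 to 0.089 for Mpo to -0.26 to 0.35 for Prtn3. Direction within this comparison depended on 1 library for Prtn3, at -0.048 without control library 1, and for Srgn, at 0.019 without double library 1.

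Adding Sf3b1 K700E to inv(3), the double group against inv(3), gave 5 of 7 members lower and 0 higher, where 9.13% of all genes fell and 13.4% rose (22.6% in either direction). Donor sex differed between these groups as well. DESeq2 called 6 lower and 0 higher (3613 genes called in all), and limma-voom 5 and 0 (3095 in all). At an unadjusted p under 0.05 edgeR gave 6 and 1, a limit for which no count over all genes is given here. Mpo fell (-0.34 ± 0.072, adjusted p = 0.00715), as did Elane (-0.54 ± 0.096, adjusted p = 0.00356), Prtn3 (-0.43 ± 0.14, adjusted p = 0.0449), Prss57 (-0.30 ± 0.077, adjusted p = 0.0175) and Srgn (-0.35 ± 0.099, adjusted p = 0.0292). Ctsg did not pass, at -0.24 ± 0.088, adjusted p = 0.0733, nor did Ctsc, at 0.22 ± 0.081, adjusted p = 0.0711. The 5 that fell did not overlap between groups, nor did Ctsc, which was higher, against 17.6% lower and 21.9% higher of all genes. Without double library 1 or double library 3, the calls of Prtn3, Prss57 and Srgn were lost and those of Mpo and Elane stayed, while calls among all genes dropped from 3103 to 1671 and 1566. Prtn3 kept its call in 11 of 21 alternatives. The late neutrophil markers summed to 3762 to 5229.7 CPM in the double group.

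Adding inv(3) to Sf3b1 K700E, the double group against Sf3b1 K700E, gave 5 of 7 members higher and 1 lower. In this comparison 25.7% of all genes rose and 23.5% fell (49.2% in either direction). Prss57 rose by 0.84 ± 0.077, adjusted p = 5.52e-06, to 1.79 times its Sf3b1 K700E level. Prtn3 rose by 0.58 ± 0.14, adjusted p = 0.00510 and Mpo by 0.47 ± 0.072, adjusted p = 0.000242. Ctsg (0.29 ± 0.088, adjusted p = 0.0172) and Srgn (0.27 ± 0.099, adjusted p = 0.0393) also rose, though their libraries overlapped. Ctsc fell (-0.37 ± 0.081, adjusted p = 0.00270). Elane was the member that did not pass, at 0.23 ± 0.096, adjusted p = 0.0684, with a 95% interval of 0.018 to 0.44. Groups did not overlap for 3 members that were higher (Mpo, Prtn3 and Prss57) and for Ctsc, which was lower, against 29.6% and 28% of all genes. Ctsg lost its call without Sf3b1 K700E library 1 or 2 or double library 2, and Srgn kept its call in 10 of 21 alternatives. Macrophage markers were lower in the double group for 17 of 18 and higher for 1 (Cd68, log2 fold change 1.52). Erythroid markers were lower for 14 of 16 and higher for 1 (the globin Hbb-bt, 2.65). Xist was lower in the double group (-2.39 ± 0.35, adjusted p = 0.000258). The part of these markers in the members' differences was not tested.

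**Figure D3:**
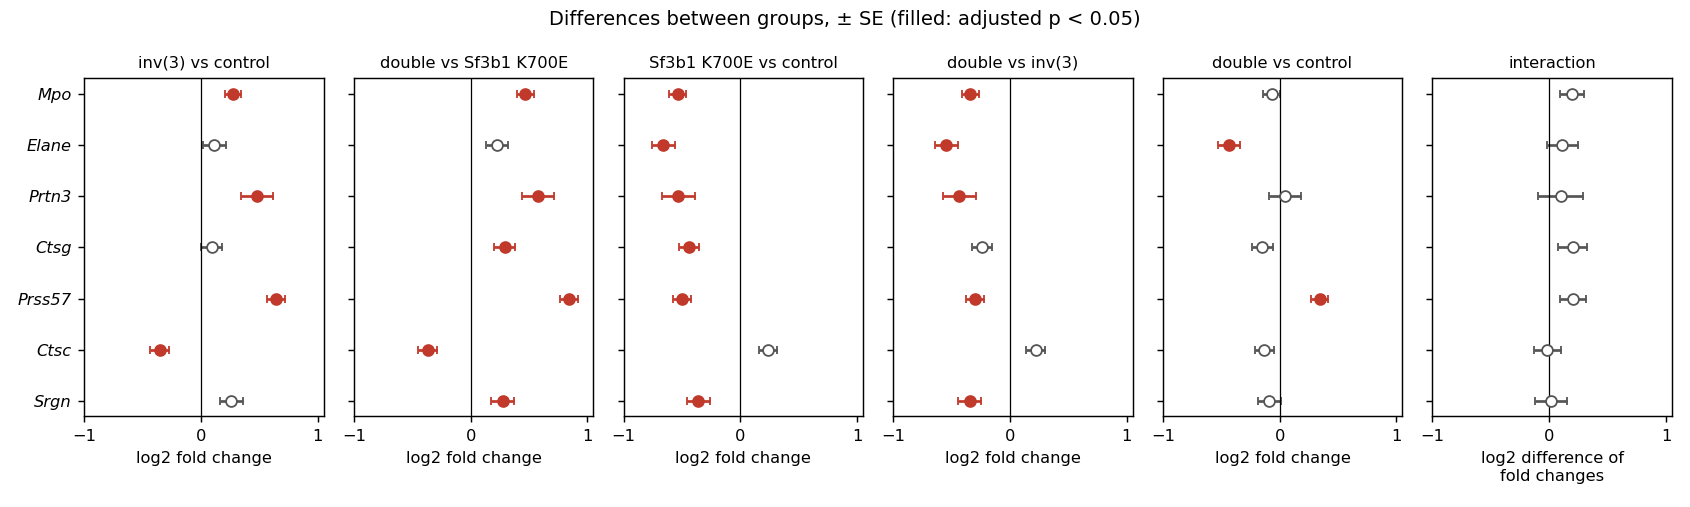
Points give the log2 fold change of each gene ± SE (horizontal axis) in 5 comparisons and the interaction, filled red where the adjusted p is under 0.05. Comparisons that add inv(3) place Prss57 farthest to the right and Ctsc to the left, those that add Sf3b1 K700E place 6 genes to the left, and all 7 interaction points are open.

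The interaction, the effect of inv(3) with Sf3b1 K700E minus its effect without it, was called for 0 of 7 members, against 0.836% of all genes. At an unadjusted p under 0.05 the count was also 0 by edgeR. DESeq2 and limma-voom called 0 members at the adjusted limit, where they called 622 and 102 genes in all. Estimates ran from -0.015 for Ctsc to 0.20 for Prss57 on the log2 scale. The 95% intervals were -0.027 to 0.42 for Mpo, -0.18 to 0.41 for Elane, -0.33 to 0.53 for Prtn3 and -0.073 to 0.47 for Ctsg. For Prss57 it was -0.033 to 0.44, for Ctsc -0.27 to 0.23 and for Srgn -0.29 to 0.32. All span 0, and departures from additivity within these bounds were not detectable with 3 libraries a group. The interaction includes the inv(3) libraries, so donor sex and genotype cannot be told apart in these estimates either. The comparisons with control share the control libraries, and those with the double group share the double libraries.

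Cystatin F (Cst7), a granule inhibitor of cathepsin C, differed most between groups with and without inv(3). Its level was 312, 292 and 264 CPM in control and 63.7, 40.5 and 66.4 CPM in inv(3). It was 205, 211 and 243 CPM in Sf3b1 K700E and 22.6, 27.9 and 23.9 CPM in the double group. Control was above all other groups and the double group below them all. Cst7 fell in inv(3) against control (-2.35 ± 0.17, adjusted p = 2.57e-06) and in the double group against control (-3.55 ± 0.18, adjusted p = 1.23e-07) and against inv(3) (-1.20 ± 0.16, adjusted p = 0.00117). Sf3b1 K700E against control gave -0.40 ± 0.16, adjusted p = 0.139, which did not pass. The TPM of Ctsc per TPM of Cst7 was 0.0818, 0.0820 and 0.0916 in control, 0.327, 0.421 and 0.294 in inv(3), 1.11, 0.757 and 0.885 in the double group and 0.139, 0.147 and 0.113 in Sf3b1 K700E, with no overlap between groups.

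Serpinb1a, which inhibits elastase, proteinase 3 and cathepsin G, was at 684, 629 and 563 CPM in control and 433, 615 and 549 CPM in the double group. It passed in 1 of 5 comparisons, the double group against inv(3) (-0.47 ± 0.13, adjusted p = 0.0278). Of 12 tested inhibitors of granule proteases, 2 rose and 4 fell in inv(3), and 3 rose and 0 fell in Sf3b1 K700E. Those that rose in Sf3b1 K700E were Serpina3g (0.52), Serpinb6a (0.56) and Serpinb9 (0.46, all log2 fold changes).

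Folding of the precursors is the work of endoplasmic reticulum chaperones. Calr (calreticulin), which binds the Mpo precursor, was at 2749, 2663 and 2691 CPM in control, 3361, 3064 and 3175 CPM in inv(3) and 3012, 3469 and 3175 CPM in the double group. The inv(3) and double libraries were all above control, with 0.24 ± 0.052, adjusted p = 0.00300 and 0.25 ± 0.052, adjusted p = 0.00222 on the log2 scale, and Sf3b1 K700E against control gave 0.0073 ± 0.052, adjusted p = 0.947. Of 14 tested folding genes, 2 rose in inv(3) (Calr and Ero1l, an oxidase that makes disulfide bonds) and none fell, and 0 changed in Sf3b1 K700E. The medians of this list were 0.081 and -0.030, against 0.0034 and -0.0053 for all genes. In Sf3b1 K700E the edgeR count at an unadjusted p under 0.05 was 2 lower and 0 higher, with no count over all genes given here. DESeq2 called 1 lower and limma-voom 0, where they called 1881 and 1274 genes in all.

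Serglycin is stored with chondroitin sulfate chains. Of 20 tested genes that build and sulfate these chains, 3 rose and 5 fell in inv(3), 2 rose and 3 fell in Sf3b1 K700E, and 0 rose and 9 fell in the double group, each against control. Chst12, a chondroitin 4-sulfotransferase, rose in inv(3) (0.58 ± 0.11, adjusted p = 0.00212) and fell in Sf3b1 K700E (-0.42 ± 0.11, adjusted p = 0.0430), the same directions as Mpo. Chst15, which adds sulfate to chains already sulfated, fell in the double group (-0.75 ± 0.087, adjusted p = 4e-05). DESeq2, limma-voom and edgeR at an unadjusted p under 0.05 each also gave 0 higher and 9 lower in that group. DESeq2 and limma-voom called 5884 and 5671 genes in all there, and no such count is given for the unadjusted limit.

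Genes for sorting cargo to granules and for granule release fell in Sf3b1 K700E in 8 of 24 cases and rose in 0, with a median of -0.14. DESeq2 gave 9 lower and 1 higher (1881 genes called in all), and limma-voom 8 and 0 (1274 in all). At an unadjusted p under 0.05 edgeR gave 13 and 1, with no count over all genes given here. In inv(3), 6 rose and 1 fell, and in the double group against Sf3b1 K700E 11 rose and 4 fell. Stxbp2, a partner of the membrane-fusion machinery, changed by -0.20 ± 0.043, adjusted p = 0.0181 in Sf3b1 K700E and by 0.30 ± 0.043, adjusted p = 0.000242 in inv(3). Lyst, whose loss gives the giant granules of Chediak-Higashi syndrome, changed by 0.76 ± 0.11, adjusted p = 0.00021 in inv(3) and -0.38 ± 0.11, adjusted p = 0.0474 in Sf3b1 K700E. Igf2r, the large mannose 6-phosphate receptor, was the gene that fell in inv(3) (-2.20 ± 0.29, adjusted p = 0.000174).

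The wider primary granule program, 14 genes beside the members, had 6 higher and 2 lower in inv(3) and 0 higher and 5 lower in Sf3b1 K700E. Its medians were 0.24 and -0.41. In Sf3b1 K700E the genes that fell were Hp (haptoglobin, -0.53), Cd63 (-0.43), Ms4a3 (-0.45), Igsf6 (-0.44) and Gstm1 (-0.40), as log2 fold changes. DESeq2 called 8 lower and 0 higher in that comparison (1881 genes called in all), and limma-voom 5 and 0 (1274 in all). At an unadjusted p under 0.05 edgeR gave 11 and 0, with no count over all genes given here. Lyz2, the lysozyme found in primary and later granules, was at 191, 160.1 and 154 CPM in control and 842, 652 and 932 CPM in the double group. It rose in inv(3) (1.61 ± 0.18, adjusted p = 5.29e-05) and in the double group (2.26 ± 0.18, adjusted p = 3.9e-06), and gave 0.054 ± 0.18, adjusted p = 0.880 in Sf3b1 K700E. Of 18 lysosomal hydrolases, some of which primary granules also hold, 12 rose and 1 fell in inv(3), and 1 rose and 4 fell in Sf3b1 K700E. Man2b1, a lysosomal mannosidase, rose in inv(3) (0.78 ± 0.039, adjusted p = 1.06e-07).

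**Figure D4:**
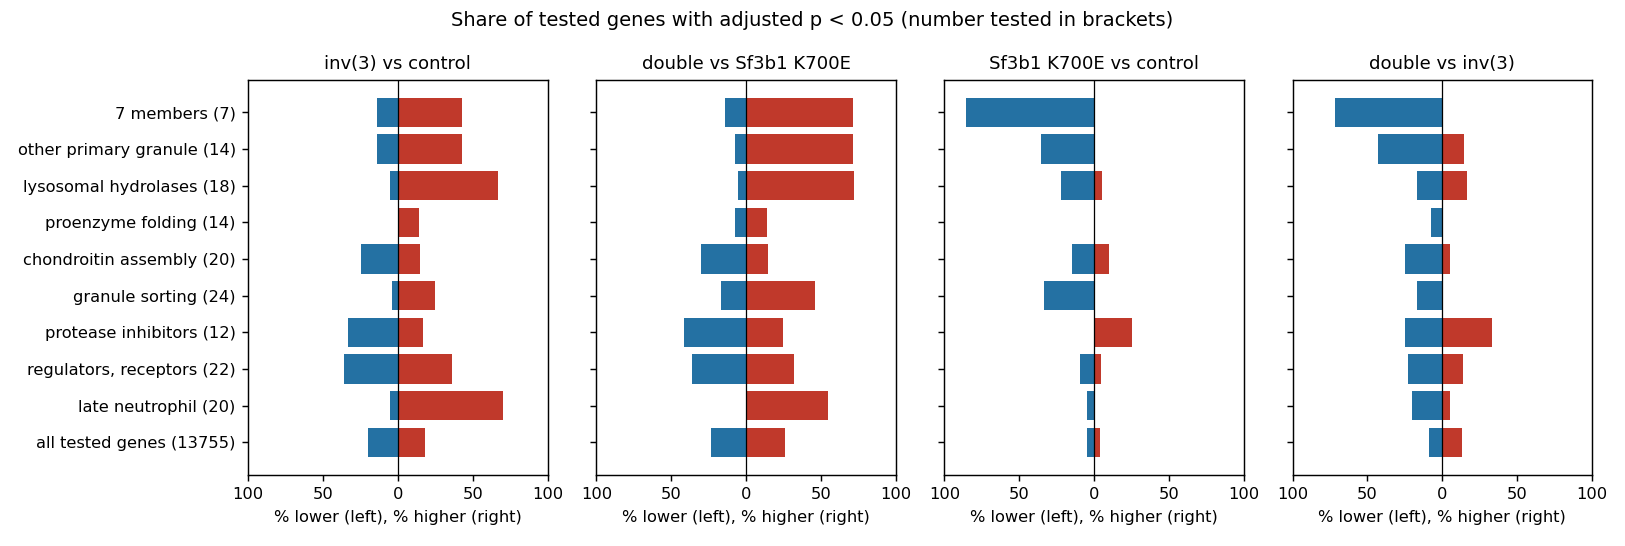
Bars give, for each gene list, the percent of its tested genes that were higher (red, to the right) or lower (blue, to the left) at an adjusted p under 0.05 in 4 comparisons, with all 13755 tested genes as the last row. In Sf3b1 K700E against control, 6 of 7 members and 5 of 14 other primary granule genes were lower, against 4.9% of all genes.

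Regulators of granule genes were split. Of 22 transcription factors and growth factor receptors, 8 rose and 8 fell in inv(3), and 1 rose and 2 fell in Sf3b1 K700E. Gfi1, a repressor needed for neutrophil maturation, was at 229.8, 231 and 210.4 CPM in control, 286, 330.0 and 269.7 CPM in inv(3) and 164, 156 and 187 CPM in Sf3b1 K700E, 3 groups that did not overlap. It rose in inv(3) (0.40 ± 0.092, adjusted p = 0.00502) and fell in Sf3b1 K700E (-0.41 ± 0.092, adjusted p = 0.0224). Spi1 (PU.1) rose in inv(3) (0.53 ± 0.10, adjusted p = 0.00155) and gave -0.30 ± 0.10, adjusted p = 0.0847 in Sf3b1 K700E. Cebpe, the factor of the step from promyelocyte to myelocyte, rose in inv(3) (0.99 ± 0.19, adjusted p = 0.00163) and gave -0.54 ± 0.19, adjusted p = 0.0972 in Sf3b1 K700E. Cebpa, which starts the granulocyte program, fell in inv(3) (-0.27 ± 0.057, adjusted p = 0.00273) and in the double group (-0.32 ± 0.057, adjusted p = 0.000887). Larger falls in inv(3) included the receptor gene Csf2rb (-1.15 ± 0.10, adjusted p = 1.09e-05). Mean levels in control and inv(3) were 189 and 74.1 CPM for Irf8 and 28.7 and 8.06 CPM for Gata1. They were 23.3 and 7.06 CPM for Gfi1b and 11.1 and 2.57 CPM for Klf4. Csf3r, the receptor for G-CSF, rose in inv(3) (0.49 ± 0.069, adjusted p = 0.00022) and fell in Sf3b1 K700E (-0.33 ± 0.069, adjusted p = 0.0170).

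**Figure D5:**
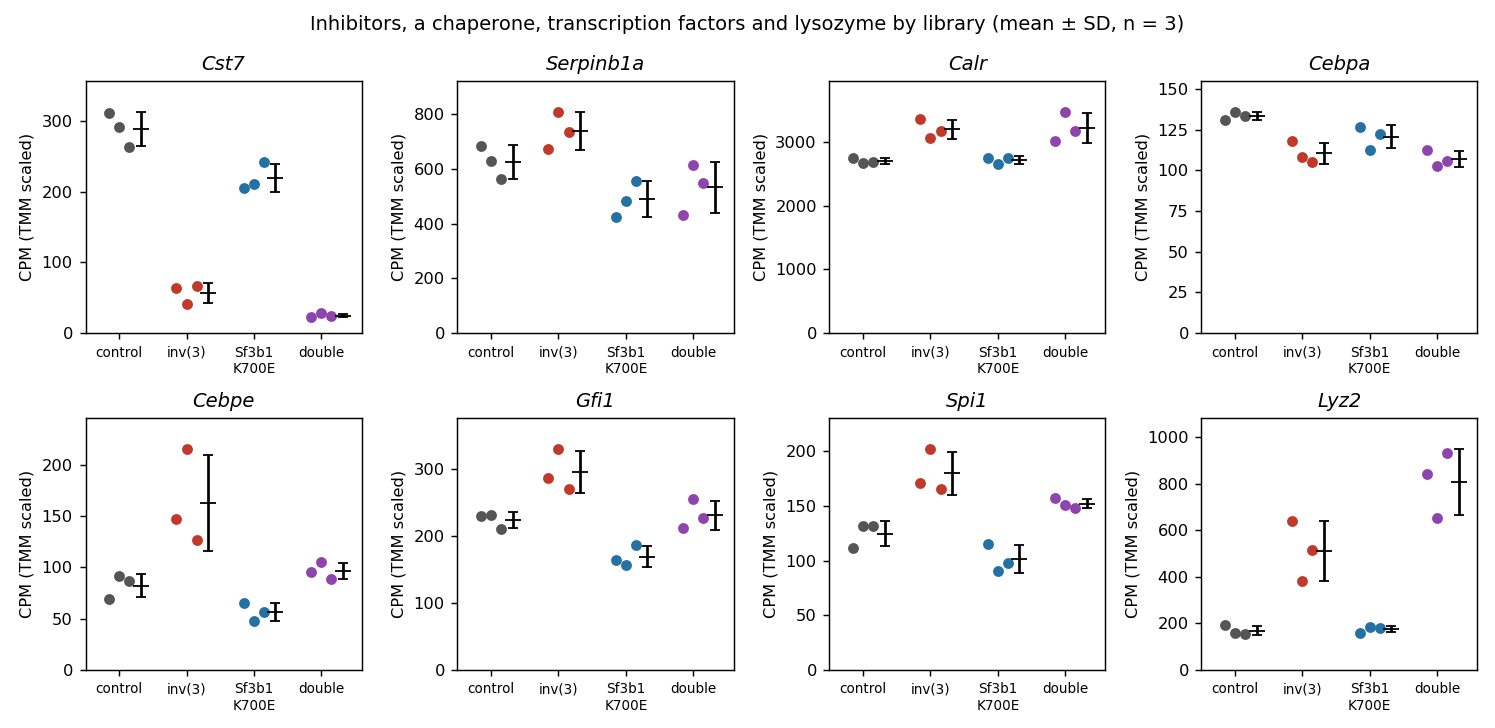
TMM-scaled CPM (vertical axis from 0) of 8 genes in the 12 libraries by group, with the mean ± SD (n = 3). Cst7 lies between 22.6 and 66.4 CPM in the 6 libraries with inv(3) and between 205 and 312 CPM in the 6 without it, while Lyz2 lies between 382 and 932 CPM in the former and between 154 and 191 CPM in the latter.

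Paralogs and close neighbours did not all follow the members. Eosinophil peroxidase (Epx), the closest relative of Mpo among the genes tested, fell in inv(3) (-0.57 ± 0.17, adjusted p = 0.0182), where Mpo rose. Epx is an eosinophil gene, and most of the eosinophil markers counted above fell in the same comparison, among them Prg2 (-1.24) and Ear1 (-4.03, log2 fold changes). Lpo, 2014 bases from Mpo, was at or near 0 in all groups. Cfd, which lies 2637 bases beyond Elane and encodes complement factor D, was at 40 to 86 expected counts per library and fell in the double group against control (-0.88 ± 0.19, adjusted p = 0.00360). Palm, 2610 bases from Prss57 on the opposite strand, was at 126 ± 12.2 TPM in control, 176 ± 21.6 in inv(3), 151 ± 8.76 in the double group and 101 ± 14.0 in Sf3b1 K700E. Palm rose in inv(3) against control (0.60 ± 0.12, adjusted p = 0.00239) and in the double group against Sf3b1 K700E (0.67 ± 0.12, adjusted p = 0.000824), comparisons in which Prss57 also rose. Mcpt8, a basophil protease 14607 bases from Ctsg, fell in inv(3) (-0.56 ± 0.14, adjusted p = 0.00823).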

How the data were processed

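The authors deposited 1 gene table per library with the columns of RSEM, per the file headers: expected counts (estimated fragments per gene, not normalized), TPM, and gene lengths in bases. RNA was poly(A)-selected and libraries were unstranded TruSeq, per the labels' protocols. The submitters' processing notes name bcl2fastq and mm10; no source used here gives their versions, the aligner or the annotation. Each of the 7 genes has 1 listed transcript and whole-number counts; over all genes, 3.63% of expected counts were not whole. No 2 libraries were identical.

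Groups were taken from the labels. The members and gene lists were chosen with earlier results of these data known. Expected counts were rounded, filtered by group with filterByExpr (13755 of 24411 genes kept), given TMM factors, and modelled in R 4.3.3 by edgeR 4.0.16, with 1 robust quasi-likelihood fit over the 12 libraries. Tests were two-sided, with Benjamini-Hochberg adjustment across every tested gene and a limit of 0.05; a standard error is the fold change divided by the root of its F statistic. CPM values are TMM-scaled. TPM was used for levels only. Alternatives were RLE scaling, DESeq2 1.42.0, no filter, limma-voom (limma 3.58.1), a filter at a mean of 5 CPM, an effective-length offset, genes above 1000 CPM left out of scaling, the compared groups alone, the replicate block, and each library left out. On simulated Sf3b1 K700E against control with 13452 genes tested, 76% and 88% of genes changed by -0.5 and 0.5 (log2) and 100% and 96% of those changed by -1 and 1 were recovered, with 7 calls among unchanged genes. The genes named are the 7 members, and of each list those with a stated role and up to 4 with the smallest p. Also named are the 10 genes of at least 10 CPM most like the members' mean. Positions come from GENCODE on GRCm38.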

Additional observations from a re-analysis of the deposited data

How the results depend on the processing

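In 875 recalculations of the members' fold changes, 788 kept direction and side of the 0.05 limit, 53 lost a call, 16 gained one and 18 changed sign, all of the last in estimates that were not called. The interaction estimate of Srgn was -0.0030 with RLE scaling, -0.011 with a mean of at least 5 CPM, -0.0066 with abundant genes left out of scaling and -0.0030 with DESeq2. With single libraries left out, estimates ranged from -0.048 to 0.13 for Prtn3 and -0.20 to 0.019 for Srgn in the double group against control, and in the interaction from -0.092 to 0.12 for Srgn, -0.10 to 0.045 for Ctsc, -0.014 to 0.20 for Elane and -0.046 to 0.23 for Prtn3. Members called with single libraries left out numbered 3 to 7 in Sf3b1 K700E against control (6 with all libraries), 2 to 5 in the double group against inv(3) (5) and against Sf3b1 K700E 4 to 6 (6). For inv(3) against control they numbered 3 to 5 (4), for the double group against control 2 to 3 (2), and for the interaction 0. The cause of these changes was not tested.

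Genes called in all moved by over 1.5 times in some settings. For Sf3b1 K700E against control, 1216 became 1881 with DESeq2 and 168 to 600 without control library 1, 2 or 3 or Sf3b1 K700E library 2. For the double group against inv(3), 3103 became 1954 with those 2 groups alone and 1566 or 1671 without double library 3 or 1. The interaction's 115 became 622 with DESeq2 and 32 to 323 with single libraries left out.

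The labels do not say whether the replicate numbers pair libraries, and correlations of deviations from means of 3 libraries cannot exclude it. Same-numbered libraries of different groups had correlations of their deviations from -0.59 to 0.41, and differently numbered ones from -0.32 to 0.57. Of the same-numbered pairs, 4 of 18 were over 0.1, and 1 of 12 libraries correlated best with its own number. When the replicate number was fitted as a block, Sf3b1 K700E against control had 4 members called, among 654 genes called in all. The interaction had 0 members called, among 60 genes. Comparing inv(3) with control gave 4 members, and the double group gave 2 against control, 4 against inv(3) and 5 against Sf3b1 K700E. For these last 4 comparisons no count over all genes with the block is given here. Without the block, 38.7%, 41.1%, 22.6% and 49.2% of all genes were called in them, in that order. Those 4 member counts by themselves therefore do not set the members apart from other genes.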

Other observations

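Genes outside the set were ranked by how closely their log2 CPM followed the members' mean over the 12 libraries, which share 4 groups. Among 8702 candidates with a mean of at least 10 CPM, the 10 best were Klf13, Tom1, Flot2, Gpi1, Itprip, Adssl1, Odf2, Slc8b1, Mbd1 and Rmnd5b, with Pearson r from 0.976 to 0.982 as a description. Klf13 is a zinc-finger transcription factor, Gpi1 an enzyme of glycolysis and Adssl1 an enzyme of purine nucleotide synthesis. All 10 were among the genes tested, but their differences between groups follow from how they were picked, so those results are not given.

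Among relatives of Ctsg, Gzmb, a granzyme of cytotoxic cells, rose in inv(3) (1.69 ± 0.19, adjusted p = 4.93e-05) and in the double group against control (2.56 ± 0.20, adjusted p = 1.91e-06). Among relatives of Ctsc, Ctsh rose in inv(3) (0.61 ± 0.087, adjusted p = 0.000232) while Ctss (-0.83 ± 0.19, adjusted p = 0.00607) and Ctsl (-0.48 ± 0.11, adjusted p = 0.00469) fell, as Ctsc did.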
